A study of Caenorhabditis elegans with 2 samples.

Results

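The X chromosome of Caenorhabditis elegans carries 276 of the 612 tRNA genes annotated on the nuclear chromosomes, and 71 of them lay at a binding site of the nuclear protein SAEG-2 in L4 larvae. The members were all genes of biotype tRNA on X in the Ensembl annotation of WBcel235, and the rule used no binding value. Sites came from chromatin immunoprecipitation followed by sequencing (ChIP-seq). The larvae were of strain RW12230, whose allele st12230 on chromosome III is a CRISPR insertion of a TY1, EGFP and 3xFLAG tag at the saeg-2 gene. They had been bleached, starved as L1 larvae and collected as whole organisms at 48 h, and the tagged protein was precipitated with an anti-GFP antibody from sonicated chromatin of 200 to 800 bp. There was 1 group, with 2 biological replicates. A gene was called bound where a peak summit lay inside it or within 100 bp of it. No control precipitation was analysed here, so SAEG-2 binding and enrichment that any antibody may give at tRNA genes cannot be told apart.

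A tRNA carries 1 amino acid to the ribosome and reads a codon through its anticodon. tRNA genes are short and are transcribed by RNA polymerase III from control elements inside the gene, the A box and the B box, which the factor TFIIIC recognises, and transcription ends in a run of T residues just after the gene. Worm tRNA genes form families of identical copies scattered over the genome, many of them in introns of coding genes. SAEG-2, suppressor of activated EGL-4, is a nuclear protein known from genetics as a negative regulator downstream of the cGMP-dependent kinase EGL-4.

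The following genes, 5′ to 3′ on their own strand, stand for the families on which the results turn. The sequences are RefSeq's, on WBcel235, and capitals mark the A box word TNGNNNAGT and the B box word GTTCGANTC where a gene holds them. The Ala sequence had the largest number of bound copies on X, the Tyr sequence is that of the gene with the highest signal, the Pro sequence is the most copied on X, the Arg and Gln sequences were rarely or never bound, and the Leu gene is a copy found once, with an intron.
tRNA-Ala(AGC), T08A9.t1, chrX:7323753-7323824, plus strand: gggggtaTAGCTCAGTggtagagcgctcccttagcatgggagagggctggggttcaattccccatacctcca
tRNA-Tyr(GUA), F56F10.t1, chrX:865389-865472, minus strand: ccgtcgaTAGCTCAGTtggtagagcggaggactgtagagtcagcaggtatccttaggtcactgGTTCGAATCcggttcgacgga
tRNA-Pro(UGG), C16B8.t1, chrX:3969556-3969627, plus strand: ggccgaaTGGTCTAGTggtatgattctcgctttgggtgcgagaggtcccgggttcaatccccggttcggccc
tRNA-Arg(ACG), C14F11.t1, chrX:6220070-6220142, minus strand: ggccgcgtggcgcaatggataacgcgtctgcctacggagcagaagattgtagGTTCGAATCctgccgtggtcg
tRNA-Gln(UUG), R04A9.t1, chrX:410391-410462, plus strand: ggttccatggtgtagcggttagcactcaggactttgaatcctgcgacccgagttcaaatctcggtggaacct
tRNA-Leu(CAA), C04A11.t1, chrX:13665555-13665673, plus strand: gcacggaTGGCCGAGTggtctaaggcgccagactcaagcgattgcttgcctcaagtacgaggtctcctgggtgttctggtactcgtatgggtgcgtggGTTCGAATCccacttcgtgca

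About 1 in 4 tRNA genes on X was bound, far above the share of other genes. Of the 276 genes, 71 were bound in the conservative list, which combines both replicates, a share of 25.7% (95% Wilson interval 20.9% to 31.2%). Over all annotated nuclear genes the share was 2.02%. Among the other genes of X it was 2.99%, and among the other X genes of at most 150 bp, most of them noncoding RNA genes, it was 3.16%. On chromosomes I to V, 68 of 336 tRNA genes were bound, or 20.2% (16.3% to 24.9%), so the interval overlaps that of X. By chromosome the share was 24.2% on I, 28.1% on II, 28.1% on III, 14.1% on IV and 10.3% on V. In this list X stood beside I, II and III, with IV and V lower. Intervals here and below treat genes as separate draws and cover counting error only. Neighbouring genes can share a summit and copies share a sequence, so the genes are not replicates of each other, and the sources used here do not say how reads from identical copies were placed.

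Each replicate alone called fewer genes. The list of replicate 1 placed a summit at 28 tRNA genes on X, 10.1% (7.11% to 14.3%), against 0.874% of all genes. The list of replicate 2 did so at 42, 15.2% (11.5% to 19.9%), against 0.953% of all genes. On I to V the counts were 28 genes (8.33%) in replicate 1 and 24 genes (7.14%) in replicate 2. The order of the chromosomes differed between the replicates, since IV had the highest share in replicate 1, 11.3%, and II the lowest, 5.26%, while in replicate 2 X stood above I (10.6%), II (8.77%) and III (7.81%). Replicate 2 gave more tRNA genes than replicate 1 on X and fewer elsewhere, with 541 peaks in its list against 452. No test of this difference was made.

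**Figure D1:**
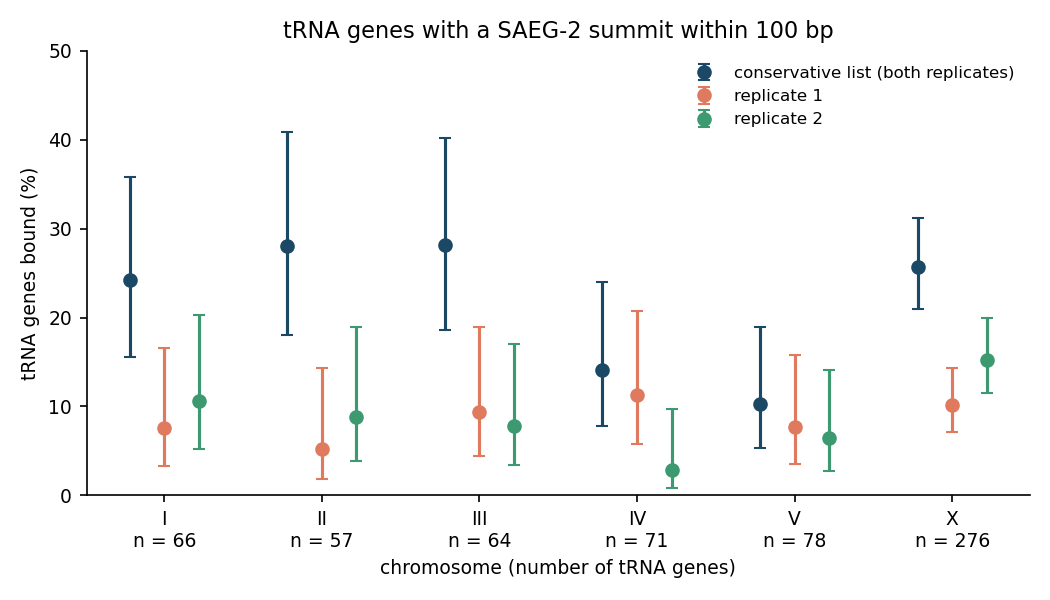
Share of tRNA genes with a summit within 100 bp (y axis, percent) by chromosome (x axis, with the number of tRNA genes) in the conservative list and in the list of each replicate; points are shares and bars are 95% Wilson intervals. On X the 3 shares are 25.7%, 10.1% and 15.2%, and chromosomes IV and V have the lowest shares in the conservative list.

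tRNA genes made up a large part of the peaks on X. Of 269 conservative peaks on X, 67 lay at a tRNA gene, or 24.9% (20.1% to 30.4%), against 63 of 876 peaks on the other chromosomes, or 7.19% (5.66% to 9.10%). The same contrast appeared in each replicate, with 25 of 101 X peaks against 25 of 351 in replicate 1, and 37 of 140 against 21 of 401 in replicate 2. X also holds 276 of the 612 tRNA genes, so the share of peaks and the share of genes bound are different quantities. The X peaks at tRNA genes were of ordinary height. Their signal value, the height the authors' peak caller gave each peak on a scale not stated, had a median of 103.0 against 100.3 for the other X peaks. The highest of them, at R11.t1, ranked 13th of the 269 peaks on X and 52nd of the 1145 peaks in the list.

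The genes of the replicates overlapped in part. A total of 23 genes were bound in both replicates, which is 82.1% of the genes of replicate 1 and 54.8% of those of replicate 2, and all 23 were bound in the conservative list. Of the other bound genes, 3 were in the list of replicate 1 alone, 15 in that of replicate 2 alone and 30 in neither. A further 6 genes were in 1 replicate's list without being in the conservative list, and 190 genes were in none of the 4 lists compared. The conservative signal value followed this order, which is partly built in, since that list derives from both replicates. It ran from 113.9 to 245.6 with a median of 154.7 in the 23 genes found in both replicates, from 92.6 to 155.4 with a median of 106.1 in the 18 genes found in 1, and from 69.6 to 122.5 with a median of 84.8 in the 30 found in neither.

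The ranked lists hold every candidate peak with its irreproducible discovery rate (IDR), a measure of how well ranks repeat, and 134 tRNA genes on X had a candidate within 100 bp in the ranked lists of both replicates. Across these genes the signal values had a Spearman correlation of 0.658, and the median ratio of replicate 2 to replicate 1 was 1.13. Among the 68 of them that were not bound in the conservative list the correlation was 0.147. That list derives from both replicates, so leaving out its genes removes those high in both. A lower value thus follows in part from the choice of genes, and nothing is read from it. The points share libraries and some share a peak, so the correlations are descriptions. In the conservative ranked list, 138 of the 205 unbound genes (67.3%) had a candidate peak, beside 46.7% of all annotated genes. Their median signal value was 50.2, against 103.6 for the bound genes and 25.9 for the whole ranked list, and 120 of the 138 stood above that list median. Unbound thus often meant a candidate peak that missed the IDR threshold of 0.01 and not a lack of any peak.

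**Figure D2:**
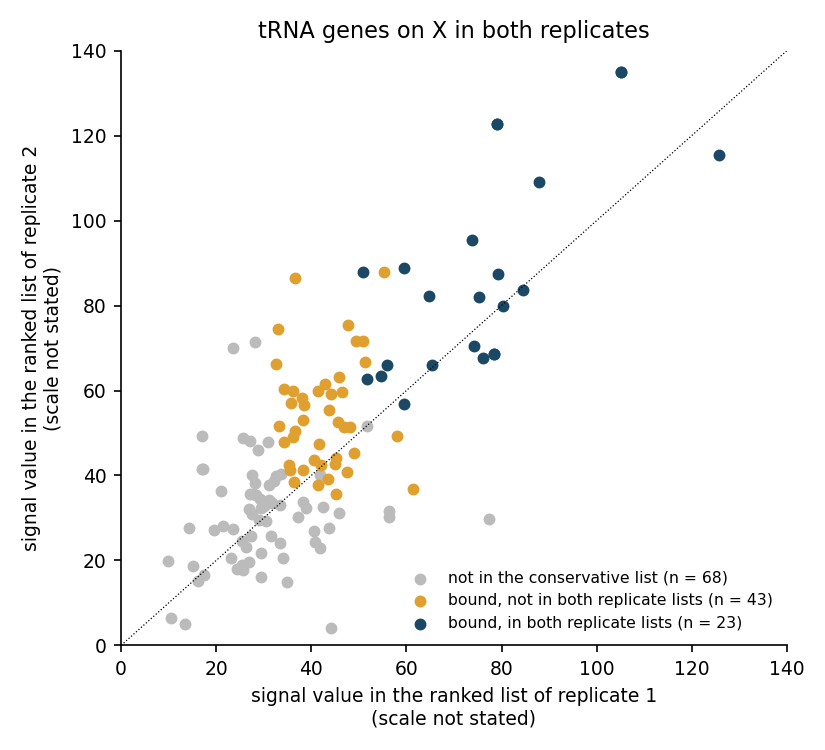
Signal value in the ranked list of replicate 1 (x axis) and of replicate 2 (y axis), scale not stated, for the 134 tRNA genes on X with a candidate peak in both; each point is a gene, points of genes that share a peak coincide, and the dotted line marks equal values. The 23 genes in both thresholded lists (blue) lie at the upper right, those bound in the conservative list without both replicates (orange) in the middle and the 68 unbound genes (grey) mostly lower.

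The strongest sites belonged to many amino acids. R11.t1, a tRNA-Tyr(GUA) gene at chrX:16209769-16209852 on the minus strand, had the highest signal value, 246, with 126 in replicate 1 and 115 in replicate 2. Its summit lay 17 bp upstream of the gene. The whole peak, chrX:16209861-16209938, lay upstream of the gene and was shorter than the next one, chrX:3035989-3036292. A single summit served the divergent pair M02F4.t2, a tRNA-Glu(CUC) gene, and M02F4.t1, a tRNA-Gly(UCC) gene, with a signal value of 236 and 105.2 and 135 in replicates 1 and 2. High values in both replicates follow in part from the choice, since these sites were picked as the highest of a list that derives from both. The next site lay between F15G9.t1, tRNA-Ala(UGC), and F15G9.t2, tRNA-Ala(AGC), in an intron of him-4, with a conservative signal value of 208 and with 79.1 and 123 in replicates 1 and 2. R01H5.t1, a lone tRNA-Thr(UGU) gene far from any coding 5′ end (10914 bp), followed with 196, 87.8 and 109.1. Its summit lay inside the gene, 28 bp from the 5′ end.

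Further down, C42D8.t1, tRNA-Ile(AAU), had a signal value of 176, with 84.6 and 83.7 in replicates 1 and 2. C04A11.t1, the tRNA-Leu(CAA) gene printed above, had 173, with 79.3 and 87.5. C33G3.t2, tRNA-Lys(UUU), had 162, with 73.8 and 95.4. These are lone genes outside coding genes, and each had its summit inside the gene. C28G1.t1, tRNA-Glu(UUC), had 157, with 75.3 and 82.1, and it lies only 97 bp from the 5′ end of the coding gene C28G1.2, so its site cannot be assigned to either gene alone. F46G11.t2, tRNA-Pro(UGG), was the highest of the genes that missed a replicate list, with 155 in the conservative list and 87.8 in replicate 2. Its candidate peak in replicate 1 had a signal value of 55.3 and did not pass the threshold.

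The rest of the 15 highest genes were C53C7.t2 and C53C7.t1, a divergent tRNA-Ser pair under 1 summit of 155, then F42D1.t1, tRNA-Cys(GCA), at 151 and K02A4.t1, tRNA-Ser(UGA), at 149. K02A4.t1 has no identical copy among annotated tRNA genes. The remaining genes found in both replicates had conservative signal values from 113.9 to 144.8. They were F41D9.t3 (Asn), F17H10.t1 (Gly), T28B4.t1 (Phe), F02D10.t2 (Ser), C16B8.t2 (Pro), K09A11.t1 (Tyr), C02B4.t2 (Tyr), R04D3.t2 (Val) and F52H2.t1 (Asp). The genes found in both replicates therefore came from tRNAs for 15 amino acids.

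Summits fell on the tRNA genes themselves more than beside them. The window reached 100 bp to each side of genes with a median length of 72 bp, and 49 of the 71 bound genes (69.0%) had the summit inside, 16 upstream and 6 downstream. Counted along the gene's strand from its 5′ end, the median summit position was 28 bp, with quartiles of 4 and 46.5 bp. Where present, the A box word began at a median of position 8 and the B box word at position 52, and the median summit fell between them. The window is symmetric about the gene, so evenly spread summits would also have their median there. Nothing is read from this place. In the lists of replicates 1 and 2 the medians were 13 and 18.5 bp, with 17 of 28 and 26 of 42 summits inside. Among the 41 bound genes that stand alone, with no other tRNA gene within 1000 bp, 34 had the summit inside and the median was 29 bp. Some genes shared a summit, and 67 distinct summits served the 71 genes. The 4 summits that served a pair were those at M02F4, F15G9, C53C7 and F02D10, and all 4 lay between the genes of the pair.

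**Figure D3:**
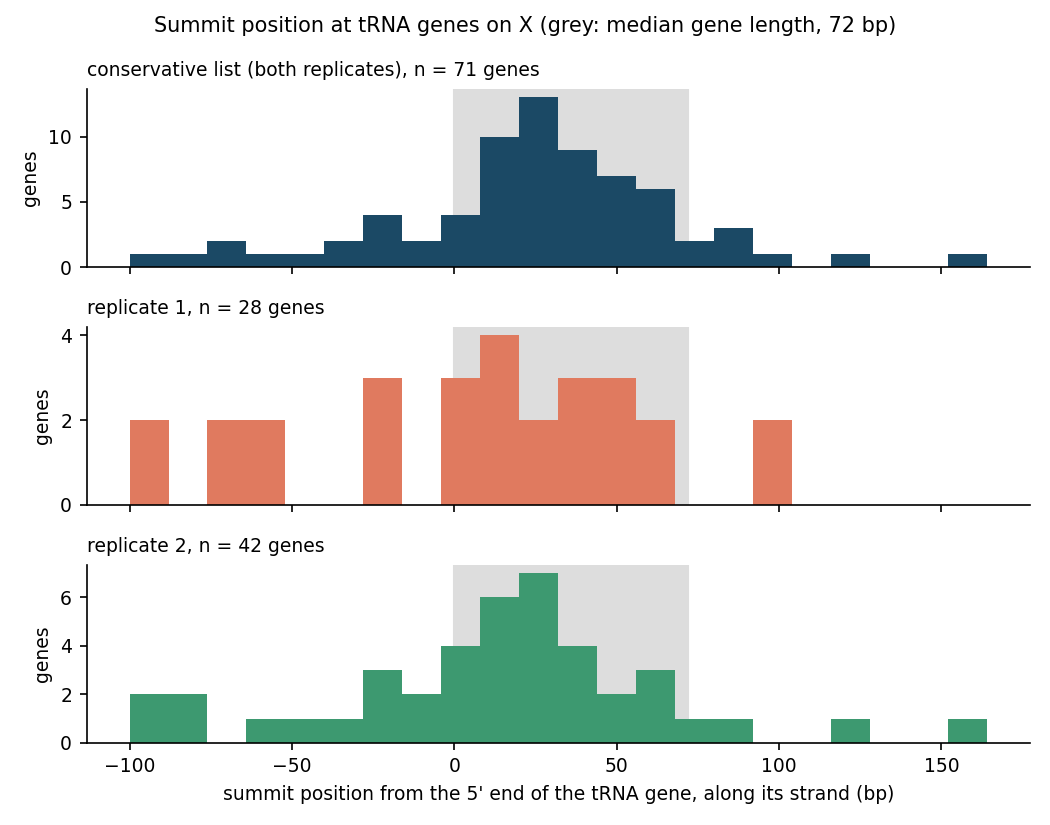
Position of the summit relative to the 5′ end of the tRNA gene along its own strand (x axis, bp) against the number of bound genes on X (y axis) for the conservative list (71 genes) and the lists of replicates 1 (28) and 2 (42); grey marks 0 to 72 bp, the median gene length. The conservative summits centre inside the gene at a median of 28 bp, and the replicate lists spread further upstream.

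A few genes lay close to the limit of 100 bp. Just inside it were M02F4.t2 with a summit at 94 bp, F02D10.t1 at 90 bp and F22F1.t3 at 88 bp. Just outside were F22F1.t2 at 108 bp, K02A4.t2 at 109 bp and T10B10.t1 at 117 bp. F22F1.t2 and F22F1.t3 lie on either side of 1 summit, and the summits near M02F4.t2, F02D10.t1 and T10B10.t1 lie at or nearer a neighbouring tRNA gene. The summit near K02A4.t2 is that of a separate low peak with a signal value of 14.7. The unbound genes with the highest candidate peaks were C04E7.t1, tRNA-Leu(AAG), with a signal value of 105.1, F38G1.t2, tRNA-Asp(GUC), with 95.2, and T26C11.t1, tRNA-Glu(UUC), with 86.9. C04E7.t1 was in the list of replicate 2 with 71.5, and its replicate 1 candidate had only 28.1. F38G1.t2, in an intron of egl-17 and 94 bp from its 5′ end, was the opposite case, in the list of replicate 1 with 77.4 and at 29.8 in replicate 2. T26C11.t1 was in neither list, with 43.6 and 27.7. These genes were picked for high candidates that missed a threshold on how well ranks repeat. Their differences between the replicates are therefore partly built in.

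Every amino acid was represented among the bound genes of the conservative list, though not in each replicate. All 20 isotypes on X had at least 1 bound gene, and the 3 genes with no isotype in RefSeq (F47E1.t3, C28G1.t5 and K02D3.t1) had none. Asn, Cys, Gln, Phe and Trp each rest on 1 bound gene. Replicate 1 had no bound gene for Arg, Gln, His, Met or Trp, and replicate 2 had none for Arg or Trp. tRNA-Ala had the highest share, 8 of 13 genes or 61.5% (35.5% to 82.3%), with 2 in replicate 1 and 4 in replicate 2. tRNA-Glu had 8 of 23 genes bound and tRNA-Leu 6 of 17. At the low end, tRNA-Arg had 2 of 27 genes bound, 7.41% (2.06% to 23.4%), with none in either replicate, and tRNA-Gln had 1 of 15. The non-conservative list, a second list of the whole series with 1307 peaks, had 5 of the 27 Arg genes and 9 of the 13 Ala genes. The Ala and Arg intervals do not overlap, but these isotypes were singled out after their values were seen and most others rest on under 20 genes. On I to V the order was the reverse, with 4 of 17 Arg genes and 4 of 21 Ala genes bound. tRNA-Tyr had 3 of 8 genes bound in the conservative list and as many in either replicate.

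**Figure D4:**
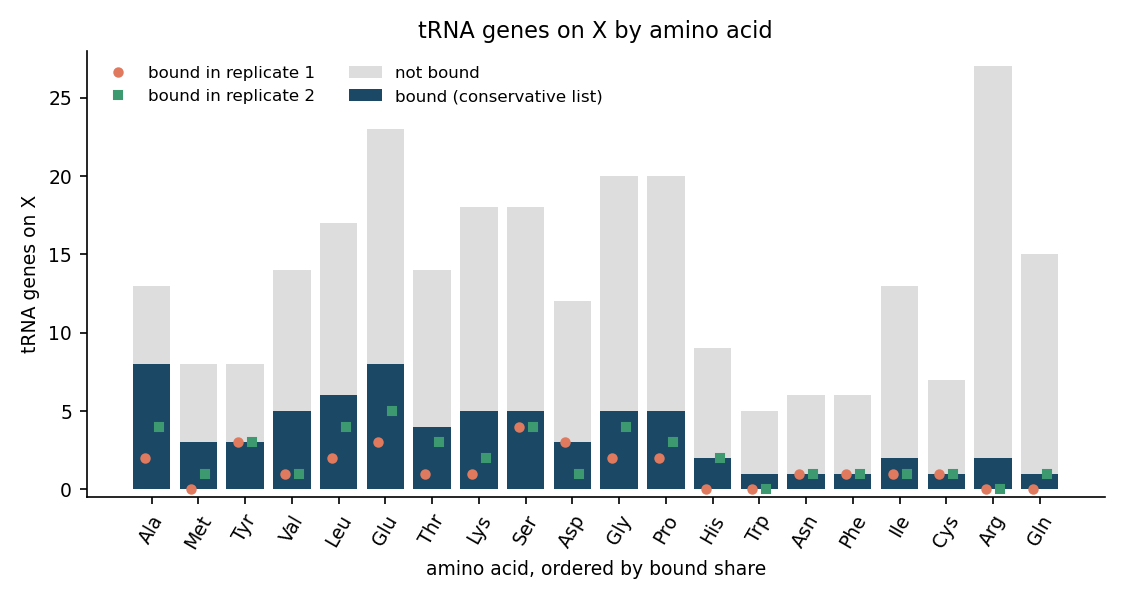
Number of tRNA genes on X (y axis) by amino acid (x axis, ordered by the share bound); the full bar is all genes, the dark part those bound in the conservative list, and the markers those bound in each replicate. Ala has 8 of 13 genes bound, Arg 2 of 27 and Gln 1 of 15, and the markers of Tyr reach the same 3 genes as its dark bar.

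Identical genes often differed in whether they were called bound. The 276 genes hold 106 distinct sequences, of which 43 had a bound copy. There were 33 sequences with 2 or more copies on X, and 29 of these had bound and unbound copies, 4 had no bound copy and 0 had every copy bound. With 25.7% of all X tRNA genes bound, mostly mixed families would follow from that share alone. A call also rests on a threshold, and 138 of the 205 unbound genes had a candidate peak. Within the gene, 222 of the 276 genes have no 50-base word that is unique in the genome. Differing calls are therefore not shown to be differing binding. In the most copied, the tRNA-Pro(UGG) sequence, 4 of 13 X copies were bound (C16B8.t1, F46G11.t2, H06A10.t1 and F23D12.t2) and 3 of 11 elsewhere. The tRNA-Glu(CUC) sequence had 4 of 12 bound on X (M02F4.t2, F02D10.t1, F52E10.t5 and F01G12.t1) and 1 of 8 elsewhere. The tRNA-Gly(UCC) sequence had 3 of 11 (M02F4.t1, T10B10.t2 and ZK154.t3) and 6 of 18. The tRNA-Asp(GUC) sequence had 3 of 10 (F52H2.t1, F59C12.t2 and F22F1.t3) and 3 of 11, tRNA-Ile(AAU) 2 of 10 (C42D8.t1 and C02D4.t1) and 4 of 9, and tRNA-Lys(CUU) 3 of 10 (W03G11.t1, F55F3.t1 and M163.t2) and 5 of 15. The tRNA-Arg(ACG) sequence printed above lies only on X, in 10 copies, and C18A11.t2 alone was bound. The tRNA-Gln(UUG) sequence had 0 of 9 copies bound on X and 0 of 6 elsewhere.

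The tRNA-Ala(AGC) sequence printed above had 5 of 7 X copies bound and 1 of 8 elsewhere, and it was described because it had the most bound copies on X. The conservative signal value was 78.0 at T08A9.t1, 81.2 at C11E4.t1, 121 at F34H10.t1, 208 at F15G9.t2 and 85.5 at T18D3.t1. The summit of 208 is shared with F15G9.t1, tRNA-Ala(UGC). It lies 11 bp from F15G9.t1 and 76 bp from F15G9.t2, so it cannot be assigned to F15G9.t2 alone. F48E3.t1 had only a candidate of 16.8 in the conservative ranked list, and C56G3.t1 had no candidate there or in either replicate. The genes are the same, so the copies differ only outside them. The 40 bases before the gene and the 25 after it are shown for F15G9.t2, with its shared summit, and for both unbound copies. Runs of 4 or more T after the gene are in capitals.
F15G9.t2 before: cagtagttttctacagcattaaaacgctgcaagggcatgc
F15G9.t2 after: gaaaTTTTTTTTTTTTaccgaaatg
F48E3.t1 before: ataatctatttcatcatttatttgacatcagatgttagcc
F48E3.t1 after: gaactcTTTTTTaTTTTTcaatatc
C56G3.t1 before: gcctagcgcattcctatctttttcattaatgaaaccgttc
C56G3.t1 after: gaaacgTTTTTgttgaatggtaatt
A T run follows bound and unbound copies alike. On X, 273 of the 276 genes have at least 4 T in a row within 25 bp downstream, beside 29.9% of 25-bp windows of the chromosome read on 1 strand. All 71 bound genes were among them, and the 3 genes without it (Y75D11A.t2, C28G1.t5 and F52E10.t2) were unbound, too few to read.

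Genes with copies were bound more often than genes without. Of the 57 X genes whose sequence occurs in 1 annotated tRNA gene only, 8 were bound, or 14.0% (7.29% to 25.3%). Of the 219 genes with at least 2 copies in the genome, 63 were bound, or 28.8% (23.2% to 35.1%). The order was the same in replicate 1, at 7.02% and 10.96%, and in replicate 2, at 12.3% and 15.98%, with small differences in each. On I to V the shares were 8.14% and 24.4%, with 5.81% and 9.20% in replicate 1 and 6.98% and 7.20% in replicate 2. On X the share was 30.8% at 2 to 9 copies and 27.9% at 10 or more, while on I to V it was 20.7% and 26.4%. The single-copy genes include near relatives of the families. C16B8.t2 and C16B8.t3, both tRNA-Pro(AGG) and neighbours in the same cluster, differ by 1 base, C66T counted from the 5′ end of the gene. C16B8.t2 was bound in both replicates with a conservative signal value of 136, and C16B8.t3 was not bound, with a candidate of 24.0 in the ranked list of replicate 2 alone. The peak of C16B8.t2, chrX:3969978-3970281, reaches into C16B8.t3, chrX:3970265-3970336.
C16B8.t2: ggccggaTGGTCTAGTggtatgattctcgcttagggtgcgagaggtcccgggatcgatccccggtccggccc
C16B8.t3: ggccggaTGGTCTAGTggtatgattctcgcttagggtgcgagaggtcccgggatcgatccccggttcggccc
K09A11.t1, a tRNA-Tyr(GUA) gene that differs from the family sequence printed above by A45G, was bound in both replicates with a conservative signal value of 122. R04D3.t4, which has 2 differences from K09A11.t1 (G45A and C78G), had a candidate peak of 28.5 in the conservative ranked list.

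Genes that hold the A box word were bound more often on X. With the word, TNGNNNAGT, 56 of 174 genes were bound, or 32.2% (25.7% to 39.4%), and without it 15 of 102, or 14.7% (9.12% to 22.9%). Replicate 1 gave 12.6% and 5.88%, and replicate 2 gave 17.8% and 10.8%. The word occurs on 1 strand in 6.14% of windows of 73 bp along X and in 63.0% of X tRNA genes. It goes with the isotype, since all 23 Glu and all 18 Lys genes hold it and none of the 27 Arg or 15 Gln genes does. Without the Ala and Arg genes the shares were 30.3% of 165 and 15.5% of 71. On I to V the difference was smaller, 21.8% with the word and 17.6% without, and neither replicate showed it there, with 7.58% and 9.60% in replicate 1 and 7.11% and 7.20% in replicate 2. With the B box word, GTTCGANTC, 26.9% of 130 genes were bound, and without it 24.7% of 146. The gap was wider in replicate 2, at 20% and 10.96%, than in replicate 1, at 11.5% and 8.90%. It occurs in 0.0952% of such windows of X, so it marks tRNA genes more sharply than the A box word, while the conservative shares with and without it lie closer together. A gene without either exact word can still hold a working box of other letters, and nothing is read from its absence.

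Large clusters of tRNA genes were mostly unbound. Genes were joined into a cluster where gaps were at most 1000 bp, which gave 141 lone genes, 39 pairs and 15 clusters of 3 or more. Lone genes were bound in 41 of 141 cases, 29.1% (22.2% to 37.0%), and paired genes in 25 of 78, 32.1% (22.7% to 43.0%). In clusters of 3 or more it was 5 of 57, 8.77% (3.81% to 18.9%), with 2 genes in each replicate list. On I to V the 3 shares were 17.4%, 30.8% and 13.0%. Counted by cluster on X, 3 of the 15 large clusters had a bound gene, against 21 of 39 pairs and 41 of 141 lone genes. This is a smaller contrast with the lone genes than the count by gene gives. A cluster counts here if any of its genes is bound, so larger clusters have more chances and the smaller contrast is partly built in. Fewer genes of the large clusters had a candidate peak at all, 56.1% against 84.4% of lone genes. Repetition moved with this, since 13 of the 57 genes had under 80% unique 50-base words in the gene and 100 bp to each side, against 10 of 141 lone genes, and its part in the result was not tested.

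The largest clusters show both patterns. The cluster of 6 identical tRNA-His(GUG) genes at F28H6 had 0 bound, with a median of 27.1% unique words. The cluster of 5 tRNA-Gln genes at H08J11, in the coding gene ajm-1, also had 0 bound, with a median of 87.0% unique words, as did the 5 Arg and Cys genes at K01A12 with 86.6%. Candidate peaks in these 3 clusters reached 67.0, 73.4 and 68.5, all short of the threshold of the conservative list, though the peak of 73.4, at H08J11.t3, was in the non-conservative list. F22F1, with 6 genes for Ser, Asp, Met and Ile, had 2 bound in the conservative list, F22F1.t3 and F22F1.t6, and none in either replicate. R11 stood apart from all of these. Its 4 tRNA-Tyr genes are identical and lie on the same strand. R11.t1, the most upstream of them, had the highest signal value of any tRNA gene on X (246), from a peak that lay wholly upstream of it. R11.t2 and R11.t4 had candidates of 33.6 and 41.2. R11.t3 had none in the conservative ranked list and one of 14.1 in replicate 1.

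**Figure D5:**
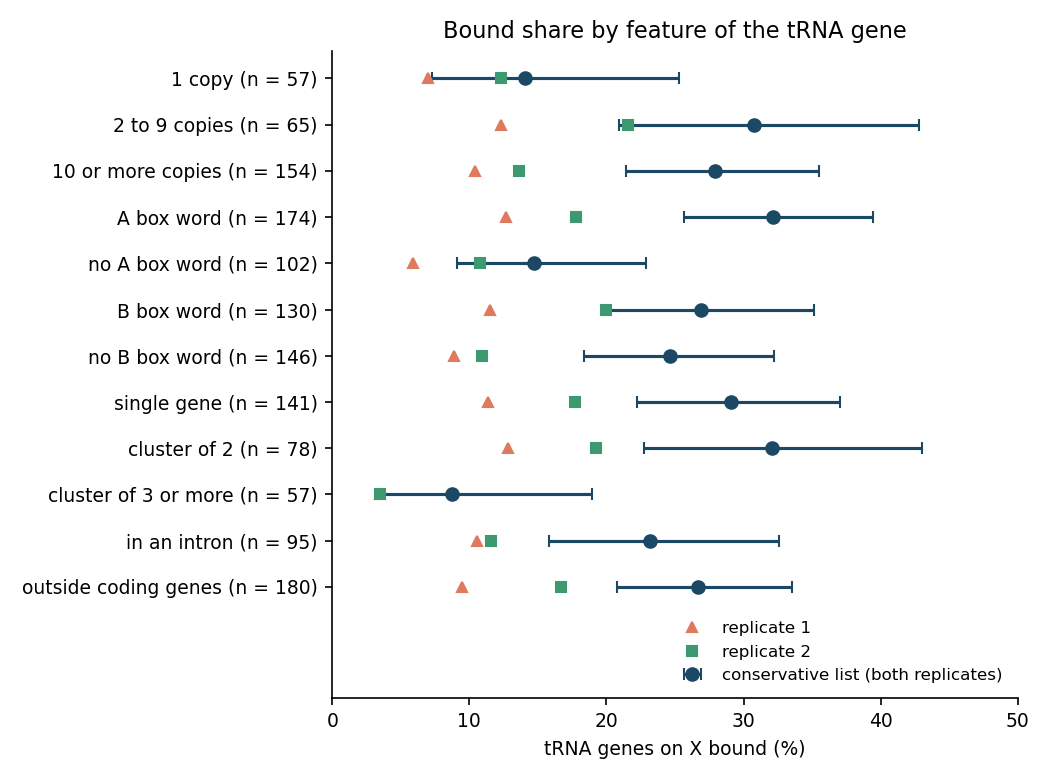
Share of tRNA genes on X that were bound (x axis, percent) by feature (y axis, with the number of genes); circles with bars are the conservative list with 95% Wilson intervals, and triangles and squares are replicates 1 and 2, which coincide for clusters of 3 or more. Single-copy genes (14.0%), genes without the A box word (14.7%) and genes in clusters of 3 or more (8.77%) have the lowest shares.

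The share of unique sequence at a tRNA gene had like medians in bound and unbound genes, and few of the most repetitive genes were bound. Within the gene, 222 of the 276 genes have no 50-base word that is unique in the genome. With 100 bp added to each side, the median share of unique words was 84.1% for bound and 84.8% for unbound genes, and 264 genes had every 100-base word unique. By this share, 3 of 32 genes under 80% were bound, or 9.38% with a wide interval (3.24% to 24.2%). It was 39 of 116 genes from 80% to 85%, and 29 of 128 genes above that. The 3 bound genes of the lowest group, R11.t1, C02B4.t2 and F02D10.t2, lay just under its limit, from 79.1% to 79.4%. A further 23 genes lie below the lowest bound gene. They are unbound by the way they were picked, and nothing is read from them. Above 80% a higher share of unique words did not go with more binding.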

How the data were processed

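The lists are deposited peak lists on ce11, the same sequence as WBcel235. The authors' signal value per peak (scale not stated) and, in ranked lists, the deposited −log10 of the IDR were used as given. Thresholded lists hold peaks with an IDR of 0.01 or lower. The conservative list (1145 peaks) derives from both replicates and each replicate's list from its own alignments, per the deposited file list. The sources used here name no aligner, peak caller, read length or control, and the depth is unknown. Signal values were compared within a list, and between the replicates' lists as deposited, with no rescaling.

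From these were computed summit distances to genes (Ensembl 115), isotypes (RefSeq, 276 of 276 genes matched), anticodons read from the sequence (8 genes not read), sequence families, word uniqueness and Wilson intervals (Python 3.11.15, scipy 1.17.1). The assignment of summits to genes within 100 bp was tested on simulated summits planted at set distances from X tRNA genes. The simulation covered no other step. No test between groups was made. Named were the 15 highest bound genes, those found in both replicates, the 6 largest families on X with bound members (a tRNA-Lys(CUU) family ties in size with the last of them), the 3 genes nearest the limit on each side, the largest and most bound clusters and the 3 unbound genes with the highest candidates. The tRNA-Ala, tRNA-Gln and tRNA-Tyr families the near-identical pairs, and the comparisons by A box word, by clusters of 3 or more genes and between tRNA-Ala and tRNA-Arg were chosen after their values were seen. The members and lists were chosen with earlier results of these data known.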

Additional observations from a re-analysis of the deposited data

How the results depend on the processing

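The share bound on X stayed above that of chromosomes I to V pooled in 8 of 8 settings, all on the same libraries. Single chromosomes did not all lie below X, in the conservative list or in replicate 1, as given above. In 8 of 8 settings each, copied genes stayed above single-copy genes and genes with the A box word above those without. Clusters of 1 or 2 genes likewise stayed above larger ones, and Ala above Arg genes, in 8 of 8. The Ala share itself ran from 15.4% to 69.2% over these settings, and the Arg share from 0% to 18.5%. With summits inside the gene only, 17.8% of X and 10.1% of other tRNA genes were bound, 18.7% of copied X genes, and 12 X genes in both replicates. Within 500 bp the shares were 31.2%, 22.6%, 34.2% for copied and 19.3% for single-copy genes. The non-conservative list gave 24.4% on other chromosomes and 18.5% of X tRNA-Arg genes. The 573 strongest peaks gave 46 X genes in 42 clusters, 16.7% on X, 9.82% elsewhere, 18.7% of copied and 8.77% of single-copy genes, and a median summit position of 22 bp. With 1 replicate alone the ranges were 28 to 42 genes, 10.1% to 15.2% on X, 7.14% to 8.33% elsewhere, 24 to 34 sequences, 25 to 36 clusters, 13 to 18.5 bp, 7.02% to 12.3% of single-copy and 10.96% to 15.98% of copied genes. Clusters cut at gaps of 5000 bp and copies counted anywhere in the genome changed little (64 clusters with a bound gene, 12.7% of single-copy genes bound). The thresholded conservative list lacks 58 peaks that pass its threshold in the ranked list, and none lay at a tRNA gene on X. With 1 group of 2 replicates and depth unknown, no share could be tested across samples. No paired analysis was possible because the study has 1 group.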

Other observations

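tRNA genes with an intron of their own are few. On X, 12 tRNA genes contain an intron and 5 were bound, 4 of them in replicate 1 and 5 in replicate 2, against 66 of 264 genes without one (25%), 24 in replicate 1 and 37 in replicate 2. On I to V the order was the reverse, with 2 of 17 genes with an intron bound (11.8%), 2 in replicate 1 and 0 in replicate 2, against 66 of 319 without one (20.7%). The X genes with an intron are the 8 tRNA-Tyr genes, the 3 tRNA-Leu(CAA) genes and the tRNA-Ile(UAU) gene C02B4.t1, so the intron and the isotype cannot be told apart. Of the 3 tRNA-Leu(CAA) genes, C04A11.t1 (173) and F42F12.t1 (103.0) were bound and F02D10.t3 had no candidate peak in the conservative ranked list, with one of 32.7 in replicate 2.

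On X, differences by position relative to coding genes were modest in the conservative list and did not hold in both replicates. Of the 95 tRNA genes that lie in introns of coding genes, 22 were bound (23.2%), and of the 180 outside coding genes, 48 (26.7%). Replicate 1 gave 10.5% and 9.44%, and replicate 2 gave 11.6% and 16.7%. On I to V the conservative shares were 17.6% and 23.9%, with 5.32% and 12.7% in replicate 1 and 6.91% and 7.75% in replicate 2. Inside coding genes, 10 of 51 on the host's strand and 13 of 45 on the opposite strand were bound, but in replicate 1 the counts were 8 and 3 and in replicate 2 they were 7 and 5. Genes within 1000 bp of a coding 5′ end were bound in 15 of 80 cases (18.8%) and the others in 56 of 196 (28.6%), with 7.5% and 11.2% in replicate 1 and nearly equal shares, 15% and 15.3%, in replicate 2. From the left to the right end of X, split into 3 equal stretches, the conservative share was 25.5%, 25.2% and 26.3%. The replicates were less even, with the middle stretch lowest, at 11.8%, 6.54% and 12.7% in replicate 1 and 21.6%, 11.2% and 16.1% in replicate 2.

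The annotation itself holds a shifted pair. F18G5.t1 and F18G5.t2 count as single-copy genes, yet after their first base both share 71 bases with the tRNA-Ala(AGC) sequence of T08A9.t1 and differ from each other only by C1T. F18G5.t2 was bound (86.6) and F18G5.t1 had a conservative candidate of 50.3.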
